A study of Bos indicus x Bos taurus with 45 samples.

Results

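Livers of normal-size bovine fetuses conceived by assisted reproduction (ART) were compared with livers of control fetuses conceived by artificial insemination. The comparison takes every library of these 2 groups in the liver table, 4 ART and 5 control libraries, which is 9 of the 45 libraries of the series. All 563 microRNAs (miRNAs) listed in that table are described. The fetuses were at about day 105 of gestation, and each library holds the small RNA of 1 fetus's liver as labelled. The ART fetuses are labelled healthy, as are the controls, so the comparison asks what differs with the way of conception when the fetus is not overgrown. The sources used here do not name the ART procedure, the sire, the dam or the fetus weights. Another liver group was 4 fetuses with large offspring syndrome (LOS), a fetal overgrowth condition seen in ruminants after ART. Its libraries entered the same fit, so they share in the estimate of spread behind the SE and p of ART against control. LOS values are also set beside ART values, with a test of ART against LOS. None of the ART or control liver labels gives a sex. The 5 tongue libraries with the control numbers 1 to 5 are labelled female, so a difference in sex cannot be told apart from one in conception.

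A miRNA is a short RNA that guides Argonaute proteins to messenger RNAs through its seed, the bases near its 5' end, and lowers their stability and translation. It is cut from a hairpin, and usually 1 arm is loaded and kept while the other, the passenger strand, is degraded. Names ending in 5p and 3p give the arm. The fetal liver holds hepatocytes, which depend on miR-122, and is also an organ where red blood cells are made, marked by miR-144, miR-451 and miR-486. Many of its abundant miRNAs come from the imprinted DLK1-DIO3 domain, whose noncoding RNAs come from the maternal chromosome in mammals, and imprinted genes are a known point of disturbance after ART in cattle.

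Values are CPM, in which a miRNA's count is divided by its library's listed total, scaled between libraries with TMM factors, and differences are log2 values, ART minus control, with the standard error (SE) of edgeR's quasi-likelihood fit. Listed reads numbered 3936697 to 4796102 in ART libraries and 3379816 to 4134460 in control libraries. ART libraries held on average 522587 more listed reads (exact permutation test, two-sided, p = 0.0476 over 126 arrangements, of which the smallest possible p is 0.00794). The TMM factors were 0.969 to 1.00 in ART and 0.998 to 1.00 in control libraries. The 10 most abundant miRNAs took 54.0% to 55.0% of the reads in ART libraries and 53.9% to 54.6% in control libraries. The mean correlation of a library with the others of its group was 0.991 to 0.992 in ART and 0.993 to 0.994 in control, across miRNAs. The median between-fetus SD of log2 CPM was 0.158 in ART livers and 0.163 in control livers. The liver label held in both groups: miR-122 stood at 18399 to 19809 CPM in ART livers and 17583 to 19597 CPM in control livers.

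Differences between ART and control livers were small for most miRNAs, and no single miRNA passed the test. With Benjamini-Hochberg adjustment over all 563 miRNAs, edgeR's quasi-likelihood test called 0 miRNAs (0%) at an adjusted p under 0.05, and the lowest adjusted p was 0.137. DESeq2 called 6, of which 5 were entries with temporary names and 1 was miR-485-3p, and limma-voom called 0. In edgeR, leaving out control 5 gave 5 calls and leaving out ART 4 gave 1. A fit of ART and control libraries alone gave 1 call, miR-temp43-3p, as did a fit with the replicate number as a block. At an unadjusted p under 0.05 there were 46 miRNAs (8.17%), of which 27 were higher in ART livers (4.8% of all tested) and 19 lower (3.37%). Over all miRNAs 289 differences lay above 0 (51.3%) and 274 below, and the median difference was 0.0034. The median size of a difference, whatever its sign, was 0.0886 on the log2 scale.

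The intervals show how large a difference these 9 libraries leave room for. The 95% interval of the difference lay within ±0.5 on the log2 scale, a fold of 1.41 either way, for 371 miRNAs, and within ±1 for 521. Among the 90 miRNAs with a mean of 1000 CPM or more, which hold 93.2% of the listed reads, 84 had an interval within ±0.5, and their median SE was 0.0613. Precision was lower for rare miRNAs, with a median SE of 0.0891 for the 165 between 100 and 1000 CPM, 0.147 for the 231 between 10 and 100 CPM, and 0.211 for the 77 under 10 CPM. In counts simulated from these livers, the same fit recovered 73% of 100 miRNAs changed by 0.5 and 99% of 100 changed by 1 on the log2 scale. Both sets were changed at once, beside 363 unchanged miRNAs. The adjustment is stricter where fewer miRNAs change, so these shares do not give the recovery of a few changed miRNAs. The counts were also drawn for each miRNA independently, from edgeR's own estimate of spread and with no library set apart. These shares hold for such counts only. Differences beyond ±0.5 were estimated for 26 miRNAs and beyond ±1 for 7.

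**Figure D1:**
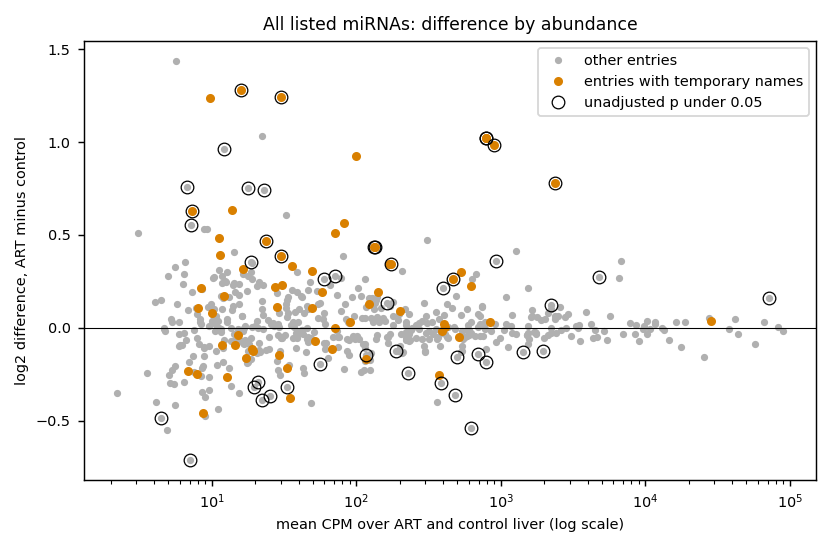
Each point is 1 of the 563 liver miRNAs, with its mean CPM over ART and control livers on the log-scaled horizontal axis and its log2 difference, ART minus control, on the vertical axis. Orange points are entries with temporary names and rings mark the 46 with an unadjusted p under 0.05. The spread narrows with abundance, and most points beyond ±0.5 lie under 100 CPM.

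The most abundant miRNAs of the liver stood at like levels in both groups. miR-411a, a DLK1-DIO3 miRNA and the highest of the table, averaged 88988 ± 5602 CPM in ART livers and 90092 ± 2444 CPM in control livers (SD, n = 4 and 5), a difference of -0.02 ± 0.04. miR-148a, abundant in hepatocytes and known to target the DNA methyltransferase DNMT1, differed by 0.00 ± 0.07. miR-143 of smooth muscle and fibroblasts differed by 0.03 ± 0.08, and miR-92a of the miR-17 cluster by -0.09 ± 0.06. miR-22-3p (0.05 ± 0.04), miR-26a (-0.01 ± 0.04), miR-27b (0.05 ± 0.04) and miR-486 (-0.03 ± 0.06) were as close. Of the 10 most abundant miRNAs, which include miR-temp63-3p, miR-192 had the largest difference. miR-192, a miRNA of liver and gut epithelium, stood at 70069.9, 78863, 79563 and 76719.6 CPM in the ART livers, against 61255, 69622, 73393, 66419 and 71131 CPM in the control livers. Its ART and control ranges overlapped, and the difference was 0.16 ± 0.06 with an adjusted p of 0.466 in edgeR.

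Of the 12 miRNAs with the lowest p among the higher differences, 6 carry temporary names, which the deposited table gives as miR-temp and a number. miR-temp32-5p had 24.7, 24.9, 32.4 and 12.3 CPM in the ART livers, against 13.1, 7.25, 6.44, 12.5 and 9.44 CPM in the control livers. Livers 1 to 3 of the ART group were above every control, while ART 4 lay among them. Its difference was 1.28 ± 0.28 (SE; 95% interval 0.67 to 1.88), with an adjusted p of 0.137 in edgeR's quasi-likelihood test. miR-temp91-5p, the most abundant of the leading entries, had 3492, 3369, 3113 and 2432 CPM in the ART livers, against 1728, 1589, 1359, 1943 and 2416 CPM in the control livers. Every ART liver was above every control for it, ART 4 only just, and the difference was 0.78 ± 0.18. miR-temp43-3p had 41.0, 43.8, 39.3 and 54.1 CPM in the ART livers, against 14.8, 20.9, 16.0, 15.7 and 26.4 CPM in the control livers. The groups did not overlap, and the difference was 1.24 ± 0.30. In a fit without the LOS libraries it was 1.24 ± 0.18, and miR-temp43-3p was called.

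miR-temp82-3p and miR-temp34-3p never differed by more than 15% in a library of any table that lists both, so reads may have been counted for both and they are read as 1 signal. miR-temp82-3p had 141, 161, 158 and 169 CPM in the ART livers, against 123, 100.4, 97.1, 119 and 142 CPM in the control livers. ART 1 lay just under control 5 and the other ART livers above every control. The difference was 0.43 ± 0.11, and 0.44 ± 0.11 for miR-temp34-3p. In edgeR's fit with the LOS libraries, the adjusted p of all of these was 0.137, as for miR-10164-3p.

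Among leading entries with permanent names, miR-10164-3p had 7.75, 12.2, 6.91 and 8.20 CPM in the ART livers, against 5.53, 4.18, 5.67, 5.04 and 5.33 CPM in the control livers. It is a rare miRNA, all ART livers were above all controls, and the difference was 0.76 ± 0.17. miR-2904 had 29.1, 23.7, 16.9 and 21.8 CPM in the ART livers, against 12.1, 14.2, 13.1, 12.2 and 16.2 CPM in the control livers. Again the groups did not overlap, with ART 3 within 1 CPM of control 5, and the difference was 0.75 ± 0.20 with an adjusted p of 0.163 in edgeR. miR-2887 had 18.8, 18.7, 16.4 and 12.8 CPM in the ART livers, against 10.8, 10.3, 5.41, 6.82 and 9.44 CPM in the control livers, a difference of 0.96 ± 0.32. miR-2403 had 9.21, 9.81, 8.34 and 7.69 CPM in the ART livers, against 5.53, 5.02, 7.21, 6.23 and 5.81 CPM in the control livers, a difference of 0.56 ± 0.16. Both showed no overlap, at levels near 10 CPM. miR-758 (0.22 ± 0.07) and miR-411b-3p (0.28 ± 0.09) of the DLK1-DIO3 domain completed the leading names. miR-758 stood at 385 to 484 CPM in ART livers and 343 to 399.7 CPM in control livers, and miR-411b-3p at 73.0 to 87.1 CPM in ART livers and 56.3 to 73.2 CPM in control livers. In both, 3 of 4 ART livers lay above every control.

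miR-temp81-5p and miR-temp94-3p are again near-identical entries. miR-temp81-5p had 870.3, 1464, 1319 and 713 CPM in the ART livers, against 529.8, 753, 393, 559 and 448 CPM in the control livers. ART 2 and ART 3 were the highest of the 9 libraries, and ART 4 lay under control 2. The difference was 1.02 ± 0.36 with an adjusted p of 0.433 in edgeR. miR-temp97-5p, whose CPM was 1.12 to 1.25 times that of miR-temp81-5p in every liver library, differed by 0.98 ± 0.35.

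Among the lower differences miR-485-3p, a DLK1-DIO3 miRNA, had the lowest p. It had 335, 333, 378 and 327 CPM in the ART livers, against 412, 448, 459.9, 404 and 380.2 CPM in the control livers. All 4 ART livers were below all 5 controls, ART 3 only just, and ART 3 stood apart from the other ART livers. The difference was -0.29 ± 0.08 with an adjusted p of 0.145 in edgeR. miR-320a had 777, 694, 731 and 721 CPM in the ART livers, against 865, 843, 812, 907 and 728 CPM in the control livers, a difference of -0.19 ± 0.06. Control 5 lay within the ART range and the other controls above it. miR-18a-3p, a passenger strand of the miR-17 cluster, had 25.5, 35.4, 27.2 and 28.2 CPM in the ART livers, against 36.2, 38.2, 37.4, 35.6 and 33.9 CPM in the control livers. ART 2 lay among the controls and the difference was -0.32 ± 0.10.

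The largest lower difference in the table was that of miR-92a-1-5p, the passenger strand of a miR-92a hairpin, with 2.72, 7.18, 4.05 and 6.92 CPM in the ART livers, against 11.1, 8.37, 6.18, 8.89 and 7.75 CPM in the control livers. ART 1 and ART 3 were below every control, ART 2 and ART 4 were not, and the difference was -0.71 ± 0.25 (95% interval -1.26 to -0.16). At under 12 CPM in every library it is also among the least precisely measured. miR-328 had 19.5, 19.9, 22.2 and 14.1 CPM in the ART livers, against 23.9, 24.8, 27.3, 24.0 and 23.7 CPM in the control livers, with no overlap and a difference of -0.39 ± 0.14. miR-140, known from cartilage, had 1864, 1871, 1829.8 and 1866 CPM in the ART livers, against 1868, 1994, 2013, 2126 and 2108 CPM in the control livers. Its ART values lay close together, near or below the lowest control, and the difference was -0.12 ± 0.05. miR-197 (-0.24 ± 0.09), miR-769 (-0.36 ± 0.14), miR-6517 (-0.29 ± 0.10), miR-2285bl (-0.32 ± 0.12), miR-2285bf (-0.20 ± 0.08) and miR-148a-5p (-0.16 ± 0.07) were the other leading names.

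**Figure D2:**
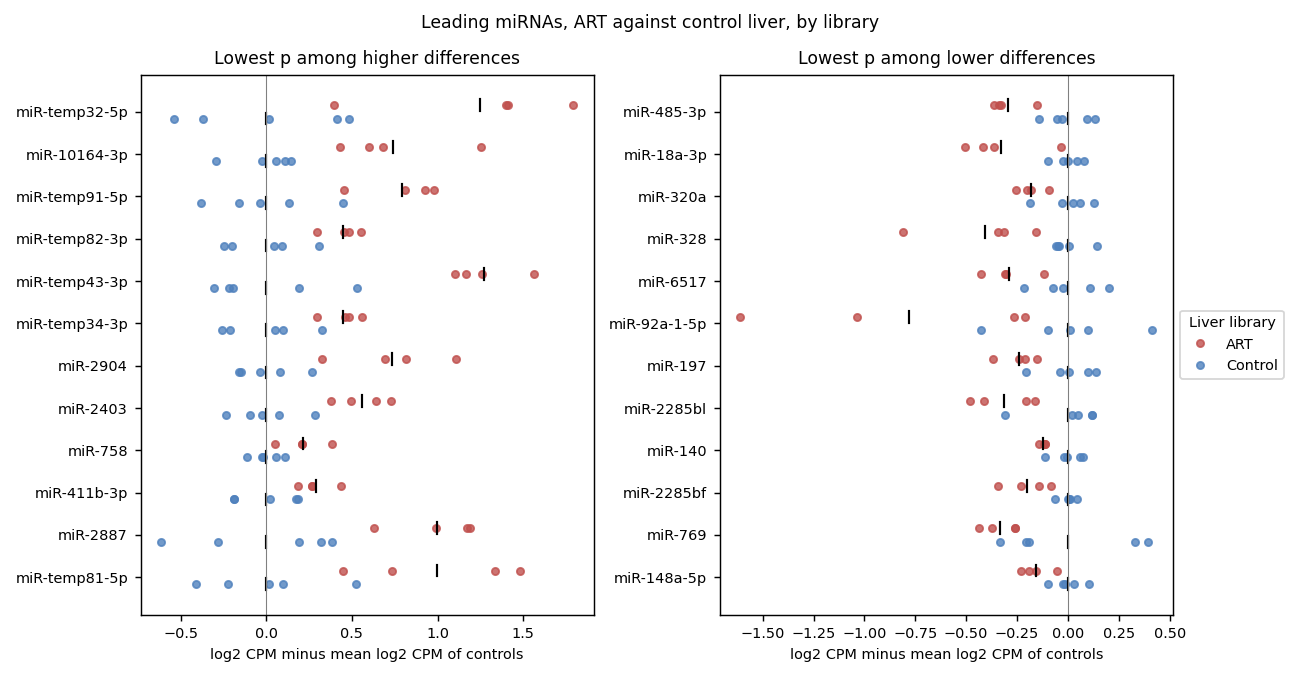
Each row is 1 miRNA, the 12 with the lowest p among higher differences on the left and the 12 among lower differences on the right. Points are libraries, as log2 CPM minus the mean log2 CPM of the control livers, ART in red above control in blue, and short black bars are group means. ART points of miR-temp43-3p lie clear of all control points and those of miR-485-3p end just below the lowest control, while those of miR-temp32-5p and miR-18a-3p overlap them through 1 ART library each.

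In 16 miRNAs (2.84%) the groups did not overlap, 8 with every ART liver above every control (1.42%) and 8 with every ART liver below (1.42%). With 1 of the 9 libraries left out there were 21 to 41. Named here because of their values, the 8 above were miR-10164-3p, miR-temp91-5p, miR-temp43-3p, miR-2904, miR-2403, miR-2887, miR-2285bc and miR-3956. The 8 below were miR-485-3p, miR-328, miR-2285bf, miR-301b, miR-361-3p, miR-532-3p, miR-temp8-5p and miR-20a-3p. Several of these differences were small and came with tight groups. miR-301b had 180.1, 181, 185 and 173 CPM in the ART livers, against 202, 187, 196, 199.8 and 193 CPM in the control livers, a difference of -0.12 ± 0.05. miR-361-3p had 110.4, 111, 105 and 113 CPM in the ART livers, against 119, 116, 119, 129 and 124 CPM in the control livers, a difference of -0.14 ± 0.07.

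Hepatocyte miRNAs gave 8 listed members, of which 6 were above 0 and 2 below, with a median of 0.02, and 0 were called. miR-122, the main miRNA of hepatocytes, averaged 19121 ± 649 CPM in ART livers and 18681 ± 790.2 CPM in control livers. The difference was 0.03 ± 0.06 (95% interval -0.10 to 0.17), so a difference beyond 0.17 in size lies outside its interval. miR-192 and miR-148a-5p had unadjusted p under 0.05 in opposite directions. miR-194, which is transcribed with miR-192 in human, stood at 2102 to 2511 CPM in ART livers and 1929 to 2398 CPM in control livers, a difference of 0.10 ± 0.07, and miR-885 differed by 0.05 ± 0.16.

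Blood cell miRNAs were as close. In bulk tissue, fewer cells of a type and less RNA per cell cannot be told apart. Of 5 red cell members 1 was above 0 and 4 below, with a median of -0.01. miR-451, which is made by Argonaute 2 without Dicer and is needed for red cell maturation, had 13537, 12883, 13194 and 13709 CPM in the ART livers, against 13883, 13969, 13613, 12503 and 13285 CPM in the control livers. The ART values lay inside the control range and the difference was -0.01 ± 0.05. miR-144 (-0.01 ± 0.07), miR-144-5p (-0.02 ± 0.07) and miR-486 (-0.03 ± 0.06) were alike, and miR-486-3p differed by 0.25 ± 0.12. miR-486 is not particular to red cells in this series. In control fetuses it averaged 37465 CPM in skeletal muscle and 19707 CPM in tongue, where miR-451 averaged 119 and 234 CPM. All 6 white blood cell members were below 0, with a median of -0.08 and none at an unadjusted p under 0.05. miR-142-5p, found in all blood lineages, stood at 4107 to 4432 CPM in ART livers and 4142 to 4606 CPM in control livers. miR-223 of myeloid cells (-0.11 ± 0.11), miR-150 of lymphocytes (-0.13 ± 0.12), miR-155 (-0.05 ± 0.10) and miR-146a (-0.18 ± 0.11) had overlapping groups.

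Markers of other cells of the organ gave small medians as well. The 3 endothelial members had a median of 0.02, with miR-126-5p at 11012 to 12698 CPM in ART livers and 10616 to 12532 CPM in control livers. The 10 members of smooth muscle and mesenchyme had a median of 0.02. In these, spread between fetuses was large in both groups: miR-199a-3p, a mesenchymal miRNA, had 2023, 2268, 2899 and 2401 CPM in the ART livers, against 3192, 2044, 2075, 3164 and 1723 CPM in the control livers. The 7 members for duct epithelium had a median of 0.16, or -0.03 without ART 3. miR-141 of epithelia had 44.2, 67.9, 144 and 117 CPM in the ART livers, against 49.6, 53.8, 70.9, 128 and 53.8 CPM in the control livers, so that ART 3, ART 4 and control 4 stood above the others and the difference was 0.39 ± 0.35, or 0.10 without ART 3. Of 8 neural and endocrine members 6 were below 0, with a median of -0.07, and miR-375, an islet and gut endocrine miRNA, differed by -0.09 ± 0.12. None of these 4 lists had a member at an unadjusted p under 0.05.

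**Figure D3:**
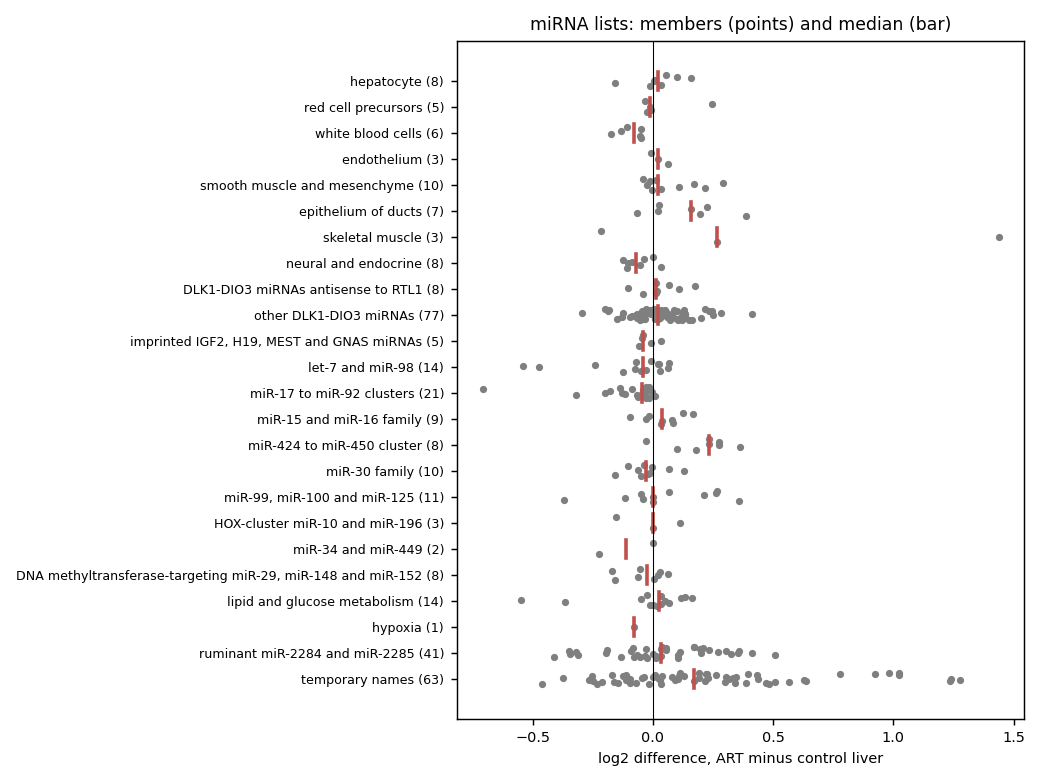
Each row is a list of miRNAs with its number of listed members in parentheses. Grey points are the log2 differences of the members, ART minus control liver, and the red bar is their median. Medians lie close to 0 in most rows, with the entries of temporary names (0.17), the miR-424 to miR-450 cluster (0.23) and the 3 muscle miRNAs (0.27) farthest to the right.

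The imprinted miRNAs stood at close levels. The DLK1-DIO3 domain gave 8 members antisense to RTL1 and 77 others. Of the 8, some of which are known to cleave the RTL1 messenger RNA in mouse, 6 were above 0 and 2 below, with a median of 0.01 that became 0.06 without control 1. miR-127, the best known of them, had 9637, 9658, 9350.5 and 10419.7 CPM in the ART livers, against 12375, 9364, 8194, 8915 and 9618 CPM in the control livers, a difference of 0.01 ± 0.09. miR-136-3p differed by 0.01 ± 0.03. Of the 77 others 45 were above 0 and 32 below, with a median of 0.02. 4 had an unadjusted p under 0.05 with higher levels, where miR-758 and miR-411b-3p had the lowest p, and 1 with a lower level, miR-485-3p. These counts are near the 4.8% higher and 3.37% lower over all miRNAs. miR-410 (-0.01 ± 0.07) and miR-409a-3p (-0.07 ± 0.06) were among the abundant members. The summed CPM of the 77 was 165324 to 182690.0 in ART livers and 170748 to 178041 in control livers, and the ranges overlapped.

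The smaller imprinted loci gave 5 members with a median of -0.04. miR-483, which lies in an intron of IGF2, a growth factor gene central to overgrowth, had 635, 583, 534 and 627 CPM in the ART livers, against 502, 592, 737, 715 and 512 CPM in the control livers. The ART values lay inside the control range and the difference was -0.04 ± 0.12 (95% interval -0.31 to 0.23). miR-335, from an intron of MEST, had 187, 145, 162 and 150.2 CPM in the ART livers, against 222, 162, 133, 166 and 149.9 CPM in the control livers, and its difference was -0.05 ± 0.22. Its other arm, miR-335-3p, differed by 0.03 ± 0.22. miR-296-3p of the GNAS locus differed by -0.06 ± 0.12 and miR-296-5p by -0.01 ± 0.15.

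The let-7 family, whose members share a seed with miR-98 and increase as cells mature, gave 14 listed members, 5 above 0 and 9 below, with a median of -0.04. let-7f, the most abundant, had 7438, 8228, 8507 and 7663 CPM in the ART livers, against 7414, 7880.2, 8152, 7907 and 7702 CPM in the control livers, a difference of 0.03 ± 0.08. let-7a-5p differed by -0.05 ± 0.07 and let-7i by 0.07 ± 0.07. let-7e alone had an unadjusted p under 0.05. It had 641, 325, 368 and 658 CPM in the ART livers, against 729, 732, 765, 766 and 631 CPM in the control livers. ART 2 and ART 3 stood far below the other 7 libraries, while ART 1 and ART 4 lay beside control 5, and the difference was -0.54 ± 0.24 with an adjusted p of 0.576 in edgeR.

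In human, let-7e is transcribed together with miR-99b and miR-125a. miR-99b had 9432, 7493, 7042 and 5068 CPM in the ART livers, against 6406, 6072, 5526, 5465 and 6670.2 CPM in the control livers, and miR-125a had 3830.4, 2693, 2753 and 2700.1 CPM in the ART livers, against 3267, 3043, 2935, 2927 and 3243 CPM in the control livers. For miR-99b, ART 1 to 3 lay above every control and ART 4 below. For miR-125a, ART 2 to 4 lay below every control and ART 1 above. The 11 members of the miR-99, miR-100 and miR-125 list had a median of 0.00.

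The list of the miR-17 to miR-92 clusters, which are known for promoting proliferation, gave 21 members, 1 above 0 and 20 below. Their median was -0.05, or -0.13 without ART 1, against 0.0034 over all miRNAs. 4 members had an unadjusted p under 0.05, all with lower levels in ART livers, where 3.37% of all miRNAs had one. The passenger strands miR-18a-3p and miR-92a-1-5p were 2 of them. miR-19b, a driver of lymphoma in mouse, had 1380.0, 1311, 1414 and 1329 CPM in the ART livers, against 1403, 1546, 1459, 1561 and 1459.7 CPM in the control livers, a difference of -0.13 ± 0.06. miR-92b, a relative of miR-92a that is on the list but is not made from these clusters in human, differed by -0.14 ± 0.06. The abundant guide strands miR-92a and miR-25 differed by -0.09 ± 0.06 and -0.03 ± 0.04. Most of the listed members come from shared transcripts, so they are not independent of each other.

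The miR-424 to miR-450 cluster, which lies on the X chromosome in human and mouse, gave 8 members, 7 above 0 and 1 below, with a median of 0.23. miR-450b had 6432, 5198, 5474 and 4121 CPM in the ART livers, against 4965, 4205, 3688, 4356 and 4717 CPM in the control livers, with ART 4 under every control but control 3. The difference was 0.27 ± 0.12. miR-450a had 1450.1, 964, 969.9 and 798 CPM in the ART livers, against 956, 781, 657, 724 and 951 CPM in the control livers, a difference of 0.36 ± 0.16. ART 1 was the highest of the 9 libraries for both, and both had an unadjusted p under 0.05, as did 4.8% of all miRNAs with higher levels. Without ART 1 the differences were 0.16 for miR-450b and 0.15 for miR-450a. The 9 members of the miR-15 and miR-16 family had a median of 0.04 and none at an unadjusted p under 0.05, with miR-16b at 4864 to 5362 CPM in ART livers and 4902 to 5543 CPM in control livers.

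Lists for regulators and metabolism held little. Of 8 members of miR-29, miR-148 and miR-152, known to target DNA methyltransferases, 4 were above 0 and 4 below (median -0.03). miR-29a differed by 0.03 ± 0.12 and miR-148b by 0.02 ± 0.04. Of 14 members linked to lipid and glucose metabolism 9 were above 0 and 5 below (median 0.02). miR-27b-5p (-0.37 ± 0.16) alone had an unadjusted p under 0.05, and miR-103 (0.02 ± 0.05) and miR-107 (0.00 ± 0.08), which act on insulin signalling in mouse liver, did not. miR-210, induced by low oxygen, had 142, 155, 179 and 169 CPM in the ART livers, against 168, 171, 179.6, 168 and 167 CPM in the control livers, a difference of -0.08 ± 0.08. The 10 members of the miR-30 family had a median of -0.03, and miR-30a-5p stood at 20556 to 29749.5 CPM in ART livers and 23639.6 to 32103 CPM in control livers. The 3 HOX-cluster members had a median of 0.00, where miR-10b had 1246, 627, 869 and 365 CPM in the ART livers, against 862, 292, 477, 1462 and 501 CPM in the control livers, a wide spread in both groups. The 2 members of the miR-34 family, which p53 induces, differed by -0.22 ± 0.17 (miR-34a) and 0.00 ± 0.11 (miR-34c). The 41 ruminant miR-2284 and miR-2285 entries had a median of 0.03, with 1 member higher and 2 lower at an unadjusted p under 0.05, near the 4.8% and 3.37% over all miRNAs.

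Entries with temporary names stood out among the lists by count. They are 63 of the 563 entries (11.2%), and 43 were above 0 and 20 below, with a median of 0.17. At an unadjusted p under 0.05, 13 (20.6%) were higher in ART livers and 0 lower, against 14 (2.80%) higher and 19 lower of the 500 other entries. The 13 hold both entries of 2 near-identical pairs (miR-temp82-3p and miR-temp34-3p, then miR-temp94-3p and miR-temp81-5p) and also miR-temp97-5p, which follows miR-temp81-5p, so some reads may count more than once. With 1 entry kept of each near-identical pair the count was 11. Of the 63, 28 are also listed in the other 3 tissue tables and 21 in none of them. Taking each library's median log2 distance from the control mean over the 63 entries, ART 1 to 4 stood at 0.19, 0.38, 0.12 and 0.00, and the controls between -0.07 and 0.11. ART 4 thus lay inside the control range and ART 2 farthest from it, and without ART 2 the median difference was 0.04. The count of 13 ranged from 8, without control 3, to 19 under the other settings tried, in a count added after the data were seen.

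The summed CPM of these 63 entries was 41111, 44541, 45640 and 39294 in ART livers and 39044, 39201, 37690 and 38538 in control livers 1 to 4, with 36639 in control 5. The groups did not overlap, with ART 4 under 100 CPM above control 2. miR-temp63-3p makes up most of that sum, at 27804, 28028, 31416 and 27856 CPM in the ART livers, against 28635, 27813, 28719, 28522 and 26357 CPM in the control livers, a difference of 0.04 ± 0.05. ART 3 stood apart from the other ART livers for it. The sources used here do not say what RNA the temporary entries stand for, and ART libraries also held more listed reads, whose part in the result was not tested.

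**Figure D4:**
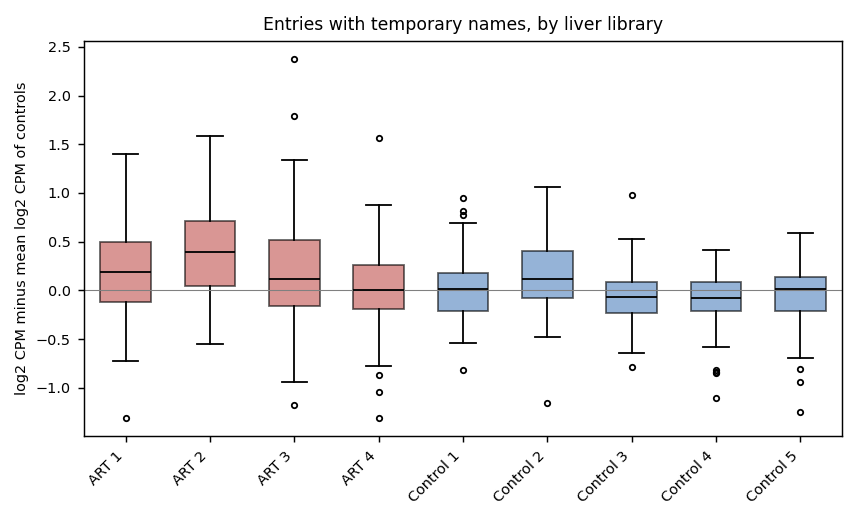
Each box shows the 63 entries with temporary names in 1 liver library, as log2 CPM minus the mean log2 CPM of the control livers. The line is the median, the box the quartiles, the whiskers reach 1.5 box lengths and circles are entries beyond. The medians of ART 1 to 3 are 0.12 to 0.38 and that of ART 4 is 0.00, inside the control range.

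The balance of the 2 arms of a hairpin was compared for the 115 hairpins with both arms listed, as the log2 ratio of 5p to 3p counts. limma called 0 (0%) after Benjamini-Hochberg adjustment, with a lowest adjusted p of 0.346, and 12 had an unadjusted p under 0.05 (10.4%). The 5p arm was the more abundant in both groups for 61 hairpins and the 3p arm for 53, and in 1 hairpin the groups differed in which arm led. That hairpin was mir-temp10, whose mean log2 ratio was 0.94 ± 0.69 in ART livers and -0.04 ± 0.43 in control livers (SD, n = 4 and 5), a difference of 0.98 ± 0.28 (SE). Both arms are rare, so the ratio rests on few reads. For mir-485 the mean log2 ratio was -1.29 ± 0.13 in ART livers and -1.63 ± 0.15 in control livers, a difference of 0.34 ± 0.11. In that hairpin miR-485-3p was the arm with lower levels in ART livers, while miR-485 differed by 0.05 ± 0.08. mir-2285aa differed by 0.33 ± 0.11.

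ART 1 stood apart from the other ART livers in muscle miRNAs. miR-133a, made by skeletal and heart muscle, had 169.6, 62.9, 60.3 and 53.3 CPM in the ART livers, against 64.1, 67.8, 74.5, 80.6 and 73.9 CPM in the control livers. miR-133b had 28.7, 1.67, 1.91 and 2.56 CPM in the ART livers, against 2.26, 3.35, 5.15, 1.19 and 4.36 CPM in the control livers. The third listed muscle marker, miR-499, had 11.1, 6.70, 6.19 and 7.18 CPM in the ART livers, against 8.55, 7.53, 12.4, 8.89 and 8.23 CPM in the control livers. Summed over the 3, ART 1 held 209 CPM, ART 2 to 4 held 63.0 to 71.3 CPM and the controls 75.0 to 92.0 CPM. LOS 1 and LOS 2 were also above every control, at 130 and 147 CPM, while LOS 3 and LOS 4 held 71.5 and 87.5 CPM. The difference of miR-133b, 1.44 ± 0.89, is the largest in the table and rests on ART 1: without it the value was -0.70, and with limma-voom on all libraries it was 0.48. miR-133a likewise differed by 0.27 ± 0.31, and by -0.30 without ART 1.

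ART 1 was also the highest library for several abundant miRNAs that are not muscle markers. miR-100 had 11739, 7229, 6208 and 5779.8 CPM in the ART livers, against 5996, 5962, 5138, 5124 and 7972 CPM in the control livers. miR-125b had 2414, 1577, 1410.5 and 1242 CPM in the ART livers, against 1749, 1333, 1190.4, 1330.2 and 1566 CPM in the control livers. The part of muscle RNA in these values was not tested. ART 1 was the deepest of the 9 libraries, and on the first principal component of the 9 libraries (25.2% of the variance) it lay at 5.48, ART 2 at 4.64 and ART 3 at 2.45. ART 4 lay at -2.92, within the controls at -3.89 to -0.28.

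**Figure D5:**
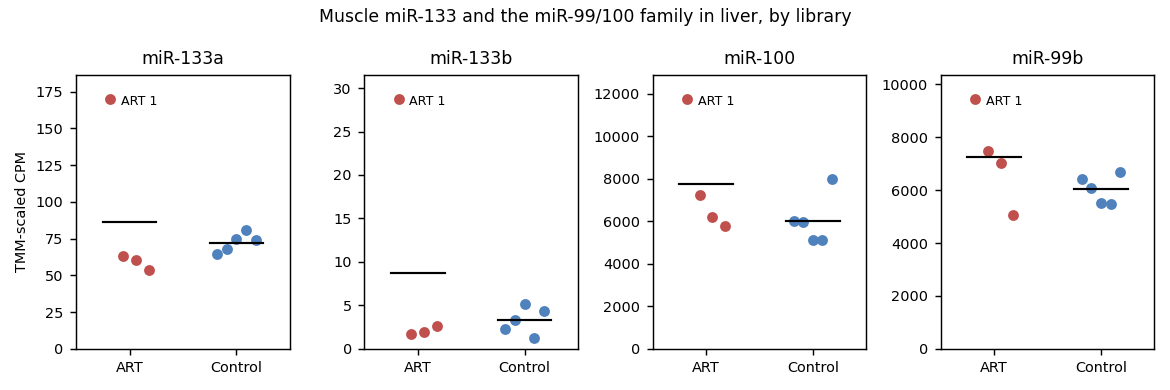
TMM-scaled CPM of miR-133a, miR-133b, miR-100 and miR-99b in each liver library, ART on the left of each panel and control on the right, with black bars for group means. ART 1 is the highest point in each of the 4 panels, at 169.6, 28.7, 11739 and 9432 CPM.

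LOS livers, also from ART-conceived fetuses, were set beside the ART livers for the leading miRNAs. The ART and LOS comparisons with controls share the 5 control libraries, and the 24 leading miRNAs were chosen by values of the same 4 ART libraries, so an ART difference from LOS is not independent of that choice. In the test of ART against LOS, edgeR called 15 of 563 miRNAs (2.66%), and 5 of them were among the 24, all higher in ART livers. The 5 include the near-identical miR-temp82-3p and miR-temp34-3p, so they hold 4 separate signals. The number called was 2 without ART 1, 2 without ART 2 and 3 without ART 3. miR-temp32-5p had 24.7, 24.9, 32.4 and 12.3 CPM in ART livers and 6.57, 9.66, 7.43 and 11.8 CPM in LOS livers, a log2 difference of 1.41 ± 0.30 (SE), ART minus LOS. LOS livers thus lay in the range of the controls for it. miR-temp91-5p had 3492, 3369, 3113 and 2432 CPM in ART livers and 1313, 1838, 1385 and 2267 CPM in LOS livers, a difference of 0.87 ± 0.20. miR-2904 differed by 1.03 ± 0.21, miR-temp82-3p by 0.60 ± 0.11 and miR-temp34-3p by 0.61 ± 0.11, with adjusted p of 0.0197, 0.0118 and 0.0118 in edgeR.

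For 2 other leading miRNAs, LOS values reached into the ART range. miR-temp43-3p had 41.0, 43.8, 39.3 and 54.1 CPM in ART livers and 25.7, 42.3, 62.2 and 18.1 CPM in LOS livers, where LOS 2 and LOS 3 lay within or above the ART range and LOS 1 and LOS 4 within that of the controls. miR-485-3p had 335, 333, 378 and 327 CPM in ART livers and 379, 361, 350.2 and 314 CPM in LOS livers, with a difference of -0.03 ± 0.08. let-7f, which is no leading miRNA of ART, had 7438, 8228, 8507 and 7663 CPM in ART livers and 11834, 9905, 14194 and 10928 CPM in LOS livers. Over the 63 entries with temporary names the median difference from controls was 0.17 in ART livers and -0.11 in LOS livers, where 19 were above 0 and 44 below. By library, their median log2 distance from the control mean was -0.35 in LOS 1, 0.01 in LOS 2, -0.02 in LOS 3 and 0.02 in LOS 4. Only LOS 1 thus lay outside the control range.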

How the data were processed

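Small RNA of frozen fetal liver was sequenced. Per the labels' protocols, 2 µg of TRIzol-extracted RNA went into TruSeq small RNA libraries, size-selected at 140 to 160 bp. The deposited liver table holds whole-number read counts per mature miRNA, not normalized. Bowtie and the cattle build UMD3.1 are named in the submitters' processing notes. The sources used here do not give the counting tool, the annotation, any filter on abundance or the handling of reads that match several entries. No listed count is 0, so the table may hold the more abundant miRNAs only, and totals are totals of listed reads. Mature sequences and genome positions are left out, since they were not analysed here.

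In R 4.3.3, edgeR 4.0.16 filterByExpr kept all 563 miRNAs, TMM factors were computed, and the 13 liver libraries (ART, control and LOS) shared 1 quasi-likelihood fit, since they then share 1 estimate of the spread. The contrast was ART minus control, with Benjamini-Hochberg adjustment over 563 miRNAs and a call at an adjusted p under 0.05. SE is the difference divided by the root of F, and intervals are 95%. Arm ratios (pseudocount 0.5) were tested with limma 3.58.1. The fit was tested on data simulated from its own estimate of spread. There it made 5 false calls among 363 unchanged miRNAs and its intervals held 96.1% of true values. Counts carry no molecular identifiers, so errors come from the spread between replicates.

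Groups come from the labels for disease status and conception method. Nothing in them says whether animals were processed on separate days, and p-values measure the spread between these libraries. The chi-square per degree of freedom of the closest library pair within the ART or control group was 23.9, so no library repeats another of its group. Pairs across groups were not compared. Members and lists were chosen with earlier results of these data known. Named are the 12 lowest p in each direction, the 10 most abundant, members of 24 lists (all where 6 or fewer, else the 3 most abundant and the 2 of lowest p), any call of an alternative, and the 3 hairpins of lowest p. miR-19b, miR-92b, miR-107, miR-125b, miR-194, miR-29a, miR-485, miR-885, miR-temp94-3p and the miRNAs whose groups do not overlap were added after their values were seen. Alternatives were other scalings, filters, tests (DESeq2 1.42.0, limma-voom), fits without LOS, without single libraries and with a replicate block.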

Additional observations from a re-analysis of the deposited data

Results flagged for a closer look

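Within groups, 1 library stood apart from the others of its group in 18 of 230 groups of values examined (Dixon's 95% criterion, which chance meets in about 1 in 20 groups). Among ART livers, ART 1 stood apart for miR-133a (169.6 CPM), miR-133b (28.7 CPM), miR-335-3p (152 CPM) and miR-125a (3830.4 CPM), each the highest of the 4. ART 2 stood apart for miR-15b-3p (32.5 CPM), the lowest of the 4, and ART 3 for miR-485-3p (378 CPM) and miR-temp63-3p (31416 CPM), the highest of the 4.

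Among control livers, control 5 stood apart for miR-223 (148 CPM), miR-10a (4293 CPM) and miR-temp104-3p (217 CPM), the highest, and for let-7e (631 CPM), the lowest. Control 4 was apart for miR-2285bl (17.2 CPM), the lowest, and for miR-141 (128 CPM) and miR-30d (5964 CPM), the highest. Control 3 was apart for miR-150 (407 CPM) and miR-499 (12.4 CPM), control 2 for miR-155 (182 CPM), all high, and control 1 for miR-411a (85763 CPM), the lowest.

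The effects of ART and of LOS relative to the same controls differed in 5 of the leading miRNAs by edgeR's test of ART against LOS. ART minus LOS was 1.41 for miR-temp32-5p, 0.87 for miR-temp91-5p, 0.60 for miR-temp82-3p, 0.61 for miR-temp34-3p and 1.03 for miR-2904 on the log2 scale. The 4 ART libraries that chose these miRNAs also enter this test.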

How the results depend on the processing

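The count of 0 calls stood under RLE scaling, no TMM factor, a mean of at least 10 CPM, no filter, limma-voom, the 3 most abundant miRNAs left out, and 2 settings chosen after seeing the data, near-identical entries left out and temporary names left out. A fit of ART and control libraries alone called 1 (miR-temp43-3p, adjusted p = 0.0226 in edgeR). DESeq2 called 6, which were miR-temp32-5p, miR-temp43-3p, miR-temp91-5p, miR-temp82-3p and miR-temp34-3p higher and miR-485-3p lower. The causes were not tested. Leaving out single libraries gave 0 to 5 calls, with 5 without control 5 (miR-temp34-3p, miR-temp82-3p, miR-temp91-5p and miR-temp104-3p higher, miR-320a lower) and 1 without ART 4 (miR-temp32-5p). The count of miRNAs whose groups do not overlap was 16, 19 under RLE scaling, and 21 to 41 with 1 library left out, since fewer libraries overlap less often. The 5 leading miRNAs called against LOS became 2 to 6 with 1 library left out, with 2 without ART 1, 2 without ART 2 and 3 without ART 3. The surplus of listed reads was 360085 to 646553 with 1 library left out, and its exact permutation p was above 0.05 in 8 of 9 cases. The difference of miR-133b, 1.44, turned to -0.70 without ART 1, reached 1.77 without ART 3, and was 0.48 with limma-voom on all libraries. No arm ratio was called under any setting tried. With the replicate number as a block (ART 1 to 4, control 1 to 4) edgeR called 1, miR-temp43-3p, with an adjusted p of 0.0311. Deviations of same-numbered ART and control libraries correlated at 0.056, 0.21, 0.061 and 0.092, and those of differently numbered ones at -0.19 to 0.16. The value of ART 2 with control 2, 0.21, was the highest of all pairs. Whether the number pairs libraries was not tested. The SE was largest for miRNAs under 10 CPM (median 0.211), and the part of depth in it was not tested.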

Other observations

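The first principal component of the 9 libraries was led by miRNAs outside the tested lists as well as by entries with temporary names, chosen here after their values were seen. miR-11972, which had the largest loading (0.25), had 41.3, 52.1, 24.1 and 5.89 CPM in the ART livers, against 16.6, 23.4, 18.3, 12.2 and 5.33 CPM in the control livers, a difference of 1.04 ± 0.66. miR-1246, which overlaps the sequence of the U2 small nuclear RNA in human, had 53.8, 50.2, 39.3 and 15.9 CPM in the ART livers, against 26.2, 47.4, 18.3, 24.0 and 15.5 CPM in the control livers, a difference of 0.61 ± 0.40. miR-temp26-5p averaged 14.3 ± 9.58 CPM in ART livers and 6.03 ± 3.69 CPM in control livers (SD, n = 4 and 5), a difference of 1.24 ± 0.63. None of the 3 had an unadjusted p under 0.05 in edgeR. ART 4 lay within the control range for all 3.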
